A study of Homo sapiens with 2 samples.

Results

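A set of 57 human genes of DNA damage signalling and repair, chosen by symbol for their known roles in these pathways, was compared between RNA-seq libraries of the liver cancer lines SKHEP1 and HepG2, in which 57820 genes are listed. All 57 symbols were found in both gene tables. SKHEP1, which grew out of a liver adenocarcinoma and is labelled as endothelial cells, and HepG2, labelled as hepatocellular carcinoma, were both grown unmodified (genotype WT) in the same serum-containing medium, with no treatment stated. Each line is represented by 1 library of poly(A)-selected RNA, so the values describe these 2 cultures, and no difference between the lines could be tested. The study was set up around PURPL, a p53-induced long noncoding RNA.

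Cells answer DNA damage on several layers. Sensor kinases such as ATM and ATR detect broken or stalled DNA and signal through CHEK1, CHEK2 and TP53BP1. Breaks are then repaired either by end joining, which ligates the ends directly, or by homologous recombination, which copies an intact sister chromatid. The Fanconi anaemia proteins act on crosslinks between the strands. Mismatch, base excision and nucleotide excision repair remove wrong bases, small base lesions and bulky adducts. Much of this machinery is expressed in all dividing cells, and the genes for recombination and crosslink repair are best known from proliferating cells, in which E2F factors drive many of them. DDB2, XPC and POLH are known targets of p53.

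The SKHEP1 library held 19940557 expected counts, that is, reads assigned to genes by a statistical model, and the HepG2 library held 22477757. Ratios are SKHEP1 over HepG2, from counts-per-million of the TMM effective library size, and their 95% intervals are exact conditional intervals that cover counting error only. Levels are compared between genes as TPM (transcripts-per-million), which is scaled by length. A gene was compared if it had at least 10 counts in either library, and 15436 genes did. The labels were checked against markers. Of 10 hepatocyte markers, 8 were under 10 counts in SKHEP1, ALB and HNF4A at 0, and all 10 were at least 4-fold lower there. The remaining markers were AFP, at 11 counts in SKHEP1, and SERPINA1, at 1817 counts in SKHEP1 against 140809 in HepG2. Of 10 endothelial markers, 7 were under 10 counts in SKHEP1, with KDR at 0 and CDH5 at 1, and TIE1 and ESAM had 10 and 16 counts. ROBO4 went the other way, at 343 counts in SKHEP1 against 4 in HepG2. Most of the endothelial markers were thus at or near 0 in the line labelled as endothelial.

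All 57 repair genes reached the minimum of 10 counts, and 56 of them had at least 100 counts in both libraries. The exception was NEIL1, with 3 counts in SKHEP1 against 38 in HepG2. As a group the genes took 0.513% of all counts in SKHEP1 and 0.481% in HepG2, and their summed level was 3100 TPM and 3062 TPM. In cultures of this kind, fewer cells expressing a gene and less RNA per cell cannot be told apart.

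**Figure D1:**
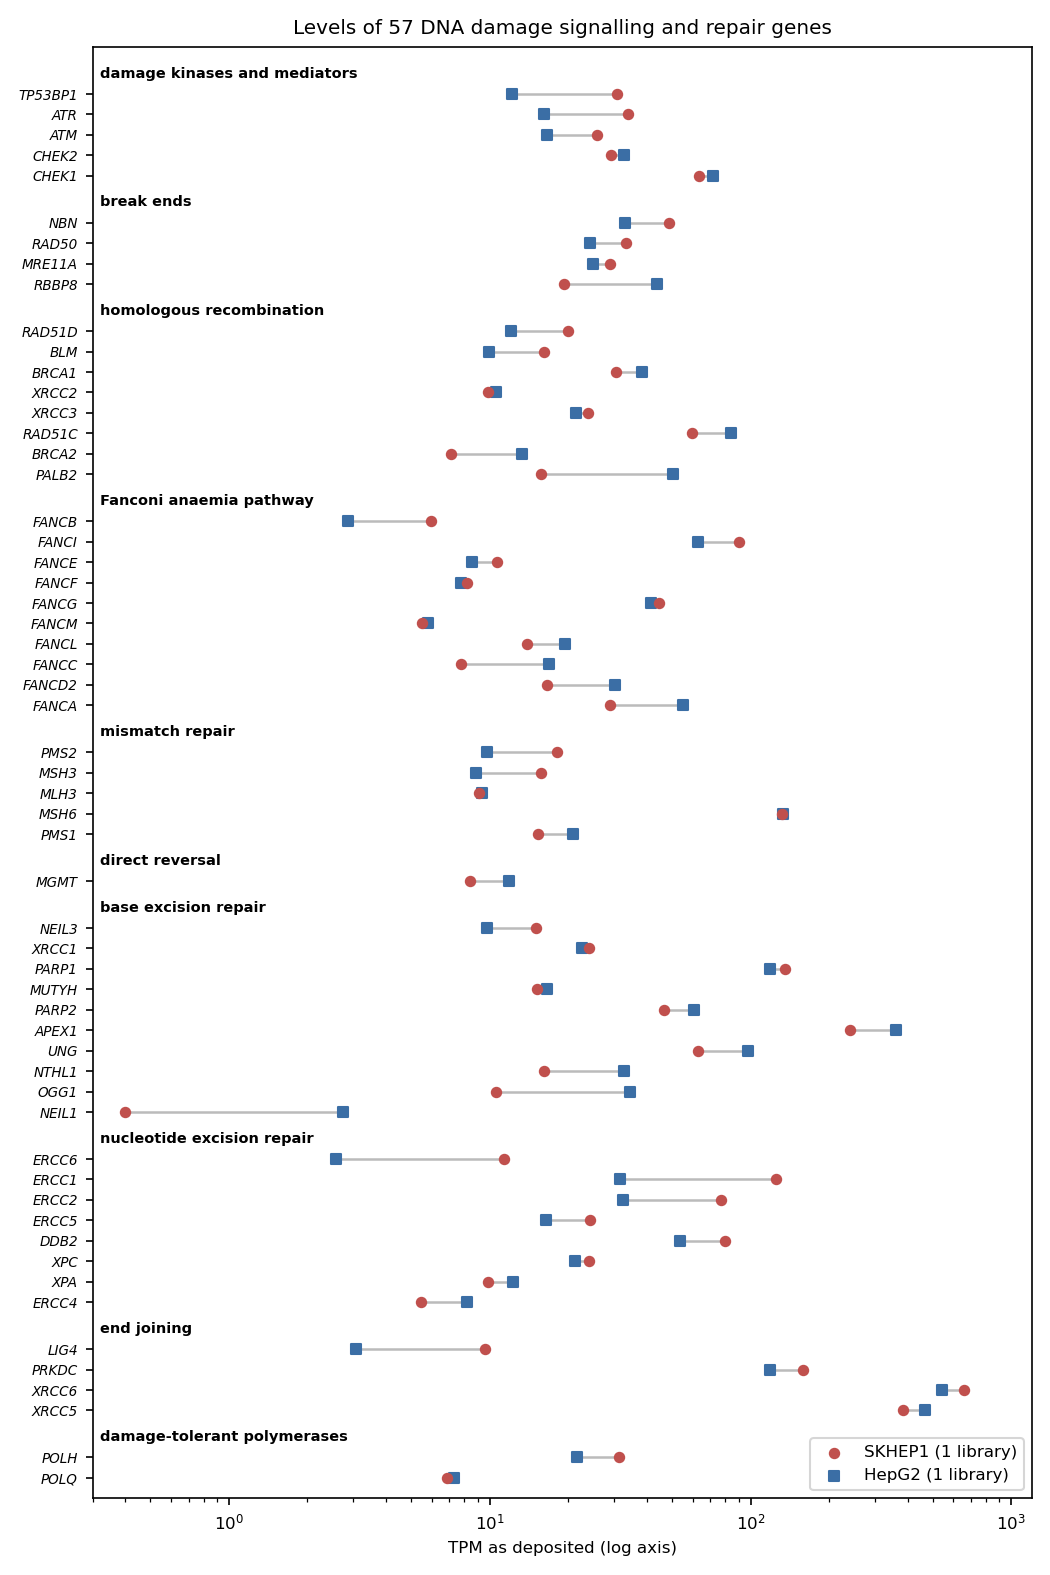
Level of each of the 57 genes in TPM (log axis) in the SKHEP1 library (circles) and the HepG2 library (squares), grouped by repair role; a grey line joins the values of a gene. Levels run from 0.40 TPM for NEIL1 to 657 TPM for XRCC6 in SKHEP1, and from 2.58 TPM for ERCC6 to 544 TPM for XRCC6 in HepG2.

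Most of the genes lay close together in the lines. Of the 57, 45 (78.9%) were within 2-fold, 5 stood at least 2-fold higher in SKHEP1 and 7 at least 2-fold lower. Among all genes compared, 51.6% lay within 2-fold, 25.0% stood at least 2-fold higher in SKHEP1, while 23.4% stood at least 2-fold lower. At 4-fold, 2 repair genes were higher in SKHEP1 and 1 lower, against 16.5% and 13.0% of all genes compared. The background was also taken, after the data had been seen, over the 11834 genes that reached 100 counts in at least 1 library, of which 58.9% lay within 2-fold. Both backgrounds include genes low in 1 library, whereas 56 of the repair genes had at least 100 counts in both. The shares are therefore not like for like. The share within 2-fold was not taken over the 9193 genes with at least 100 counts in both libraries. The median log2 ratio of the repair genes was -0.02, and that of all genes compared 0.03. The middle of the repair genes spanned -0.41 to 0.53 between the quartiles, and that of all genes -0.90 to 1.00. For 49 of the 57 genes the counting interval of the ratio did not hold 1. That share was not taken over all genes compared, so it describes depth and not the repair genes. The depth resolved even small gaps between these 2 libraries. Whether such gaps exceed the variation between cultures of a line could not be examined.

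**Figure D2:**
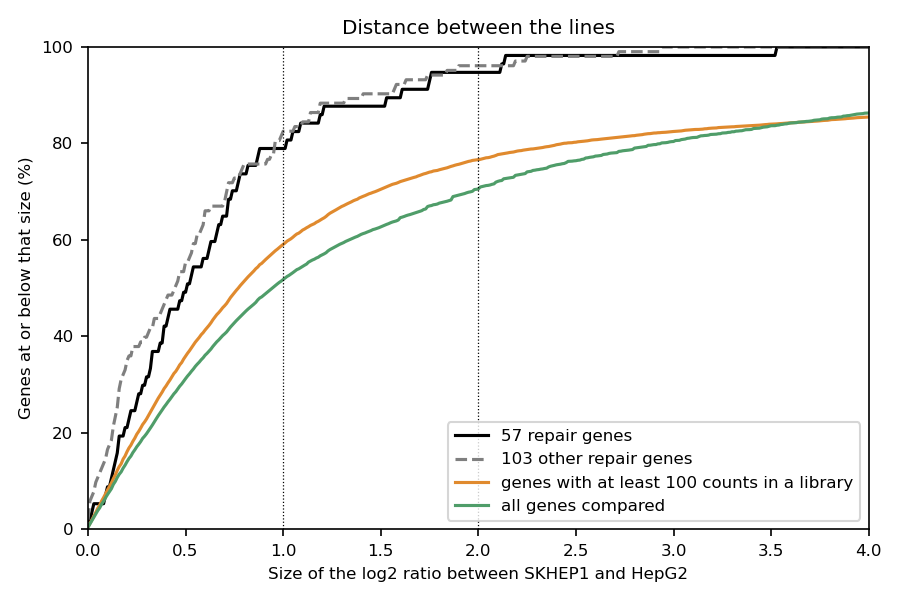
Cumulative share of genes (%) by the size of their log2 ratio between SKHEP1 and HepG2, for the 57 repair genes, 103 other repair genes, genes with at least 100 counts in a library, and all genes compared; dotted lines mark 2-fold and 4-fold. At 2-fold the curve of the repair genes stands at 78.9% and that of all genes compared at 51.6%.

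The repair genes furthest up in SKHEP1, ERCC6 and ERCC1, belong to nucleotide excision repair. Of the 8 listed genes of this pathway, 3 (37.5%, against 25.0% of all genes compared) stood at least 2-fold higher in SKHEP1. None of the 8 was at least 2-fold lower, and their median log2 ratio was 0.62. The 14 further genes of the pathway had a median of -0.15, with 1 at least 2-fold higher in SKHEP1 and none lower. ERCC6, or CSB, the ATPase that recognises RNA polymerase stalled at a lesion, had 1025 expected counts in SKHEP1 against 255 in HepG2, and was 4.41-fold higher in SKHEP1 (interval 3.84 to 5.08). ERCC1, the partner that anchors the ERCC4 nuclease, had 1879 counts in SKHEP1 against 474 in HepG2, a 4.35-fold higher level (3.93 to 4.82). ERCC2, or XPD, a helicase of the transcription factor TFIIH, had 2642 and 1255 counts, a 2.31-fold higher level in SKHEP1 (2.16 to 2.47). The other listed genes of the pathway were nearer to each other in the lines. The lesion-sensing gene XPC differed little, at 1043 counts in SKHEP1 against 1055 in HepG2 (ratio 1.09, interval 0.995 to 1.18), and its ultraviolet-damage partner DDB2 was 1.44-fold higher in SKHEP1 (1.34 to 1.55). ERCC5, or XPG, the nuclease that cuts on the 3′ side, was 1.64-fold higher in SKHEP1. ERCC4, or XPF, the nuclease that cuts on the 5′ side, was 1.58-fold lower in SKHEP1 (1.38 to 1.81) at 353 and 612 counts, and the scaffold XPA 1.25-fold lower (1.01 to 1.55).

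Since ERCC1 and ERCC4 form a single nuclease, their balance was compared within each library. ERCC1 stood at 125 TPM and ERCC4 at 5.43 TPM in SKHEP1, a ratio of 23.0, against 31.6 TPM and 8.19 TPM in HepG2, a ratio of 3.86. This was the largest gap in balance among the 12 partner pairs examined, 5.97-fold between the lines.

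Some of these genes share a locus or exon bases with other listed genes. The ERCC6 locus is also listed as ERCC6-PGBD3, a readthrough with 313 counts in SKHEP1 against 49.7 in HepG2. Adding both rows gave a ratio of 4.83. ERCC1 shares 1593 exon bases with CD3EAP, a gene on the opposite strand with 539 counts in SKHEP1 against 971 in HepG2, and the strand setting of the counting is not given in the sources used here. CD3EAP stood lower in SKHEP1 while ERCC1 stood higher, and the sum of both rows was 1.84-fold higher in SKHEP1. The expected counts of ERCC1 and CD3EAP were whole numbers in both libraries, whereas those of ERCC6, ERCC5 and their readthroughs held fractions. Whether ERCC1 and CD3EAP shared any reads was not tested. ERCC2 and ERCC1 lie near each other on chromosome 19, with PPP1R13L and CD3EAP between them in RefSeq order. PPP1R13L, an inhibitor of p53, had 602 counts in SKHEP1 against 54 in HepG2 (log2 ratio 3.61), whereas CD3EAP had a log2 ratio of -0.71. For ERCC5, the readthrough BIVM-ERCC5 had 282 and 301 counts, and the summed ratio was 1.40.

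**Figure D3:**
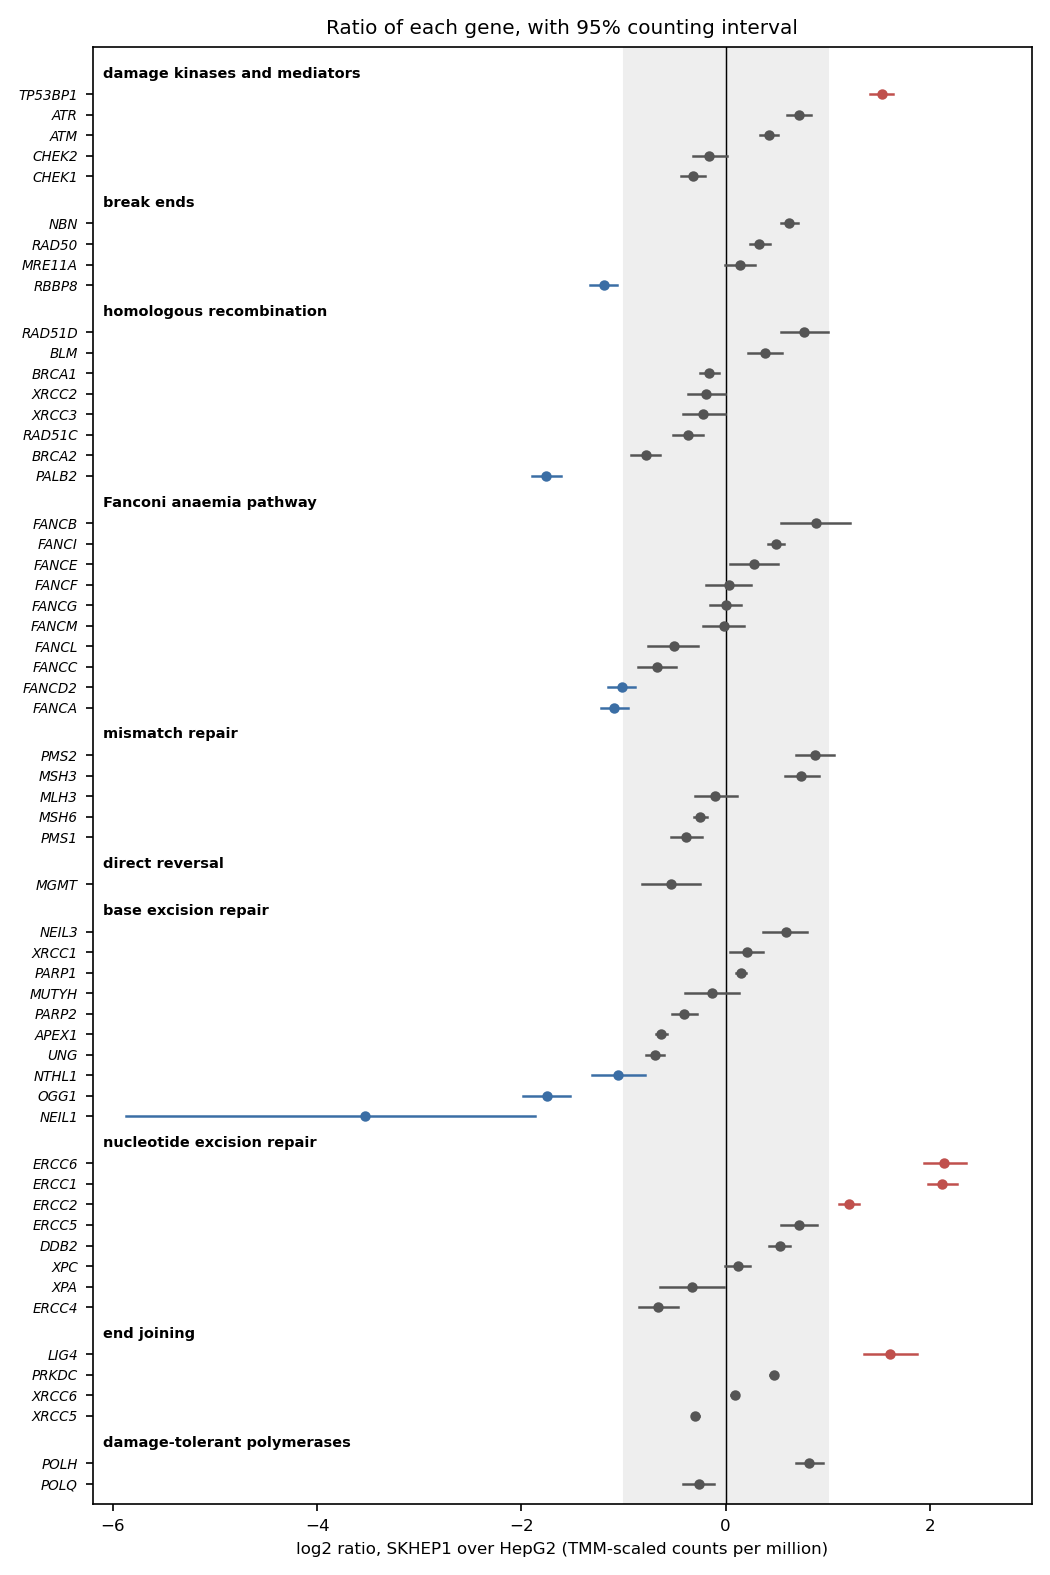
Log2 ratio of each gene, SKHEP1 over HepG2, grouped by repair role, with its 95% counting interval as a bar; the grey band marks 2-fold, and colours mark genes at least 2-fold higher (red) or lower (blue) in SKHEP1. Nucleotide excision repair reaches 2.14 with ERCC6, and base excision repair reaches -3.53 with NEIL1.

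Base excision repair begins with glycosylases, the enzymes that cut out a damaged base, and these differed in both directions. Of the 10 base excision genes, 3 (30.0%, against 23.4% of all genes compared) were at least 2-fold lower in SKHEP1 and none at least 2-fold higher, with a median log2 ratio of -0.52. The 17 further genes of the pathway had a median of -0.01, with 2 at least 2-fold higher in SKHEP1 and 1 lower. OGG1, which removes 8-oxoguanine, stood at 9.70 counts-per-million in SKHEP1 and 32.6 in HepG2, and was 3.36-fold lower in SKHEP1 (2.87 to 3.95). NTHL1, which removes oxidised pyrimidines, had 177 and 402 counts, a 2.07-fold lower level in SKHEP1 (1.73 to 2.48). NEIL1, another glycosylase for oxidised bases, was 11.5-fold lower in SKHEP1, with a wide interval of 3.66 to 58.4 because it rests on 3 counts there. It was the lowest repair gene in SKHEP1 at 0.40 TPM and was also low in HepG2 at 2.73 TPM. NEIL3, its relative acting on unpaired strands, was higher in SKHEP1, at 420 and 307 counts (log2 ratio 0.59). UNG, the uracil glycosylase, was 1.61-fold lower in SKHEP1 (1.51 to 1.72), and MUTYH, which removes adenine opposite 8-oxoguanine, had 220 and 265 counts (ratio 0.911, interval 0.759 to 1.09). Among the further genes, the glycosylase gene NEIL2 had 617 counts in SKHEP1 against 296 in HepG2 (2.29-fold higher, 1.99 to 2.64), and TDG, which acts on mispaired thymine, 934 against 593 (log2 ratio 0.79).

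The listed genes that act after base removal were within 2-fold. Of the further genes of these steps, APTX was more than 2-fold lower and APLF more than 2-fold higher in SKHEP1, with values given at the end. APEX1, the endonuclease that cuts at the empty site, was abundant in both lines at 241 TPM in SKHEP1 and 362 TPM in HepG2, 1.54-fold lower in SKHEP1 by counts (1.48 to 1.61). PARP1, the main sensor of strand nicks, had 6324 counts in SKHEP1 against 6253 in HepG2 (ratio 1.11). Its relative PARP2 was 1.32-fold lower in SKHEP1, so PARP1 stood at 2.91 times the TPM of PARP2 in SKHEP1 and 1.96 times in HepG2. The scaffold XRCC1 was 1.15-fold higher in SKHEP1 (1.03 to 1.29). OGG1 shares 2180 exon bases with the opposite-strand gene CAMK1, which had 143 counts in SKHEP1 against 546 in HepG2, and 356 bases with TADA3, at 795 and 1824 counts. NEIL1 shares 1831 exon bases with the opposite-strand gene MAN2C1, at 509 and 692 counts. Both neighbours of OGG1 were lower in SKHEP1 together with it, and their part in the OGG1 value was not tested. MGMT, which reverses O6-methylguanine directly and is often silenced in tumours, was detected in both lines at 167 counts in SKHEP1 against 266 in HepG2, a 1.45-fold lower level in SKHEP1 (1.19 to 1.77).

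Among the damage kinases and mediators, TP53BP1 stood apart. TP53BP1, or 53BP1, which protects break ends and favours end joining, had 2296 counts in SKHEP1 against 875 in HepG2, and was 2.88-fold higher in SKHEP1 (2.66 to 3.12). It shares 3732 exon bases with the opposite-strand gene TUBGCP4, which had 446 and 919 counts and was therefore lower in SKHEP1. The kinase ATR, activated at stalled forks, was 1.65-fold higher in SKHEP1 (1.52 to 1.79), and ATM, activated by breaks, 1.34-fold (1.26 to 1.43). Their effector kinases showed the smaller gaps. CHEK1 had 1048 counts in SKHEP1 against 1437 in HepG2 and was 1.25-fold lower in SKHEP1, and CHEK2 had 554 and 678 counts (ratio 0.897, interval 0.800 to 1.01, which holds 1).

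The 4 genes that process break ends differed in direction, and the 6 further genes of this step split evenly, 3 above and 3 below a ratio of 1. The complex of MRE11A, RAD50 and NBN binds and trims ends, and its members had ratios of 1.10 (interval 0.993 to 1.22), 1.26 and 1.54. NBN was the most abundant of them in each line, at 48.6 TPM in SKHEP1 and 33.1 TPM in HepG2. RBBP8, or CtIP, which starts resection together with this complex, had 628 counts in SKHEP1 against 1577 in HepG2, and was 2.29-fold lower in SKHEP1 (2.08 to 2.51).

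End joining held the most abundant repair genes of both lines. XRCC6 and XRCC5, which encode the Ku70 and Ku80 subunits of the ring that binds break ends, ranked first and next among the 57 genes in each library, at 657 TPM and 385 TPM in SKHEP1 and 544 TPM and 467 TPM in HepG2. By counts, XRCC6 was 1.06-fold higher in SKHEP1 and XRCC5 1.23-fold lower. By TPM, the ratio of XRCC6 to XRCC5 RNA was 1.71 in SKHEP1 and 1.16 in HepG2. The gap in XRCC6 was larger by TPM (log2 ratio 0.27) than by counts (0.09). PRKDC, the catalytic kinase recruited by Ku, was 1.38-fold higher in SKHEP1 (1.35 to 1.42). The ligase gene LIG4, which seals the ends, stood far below them. It had 475 counts in SKHEP1 against 171 in HepG2, 9.55 TPM and 3.08 TPM, and was 3.05-fold higher in SKHEP1 (2.56 to 3.65).

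**Figure D4:**
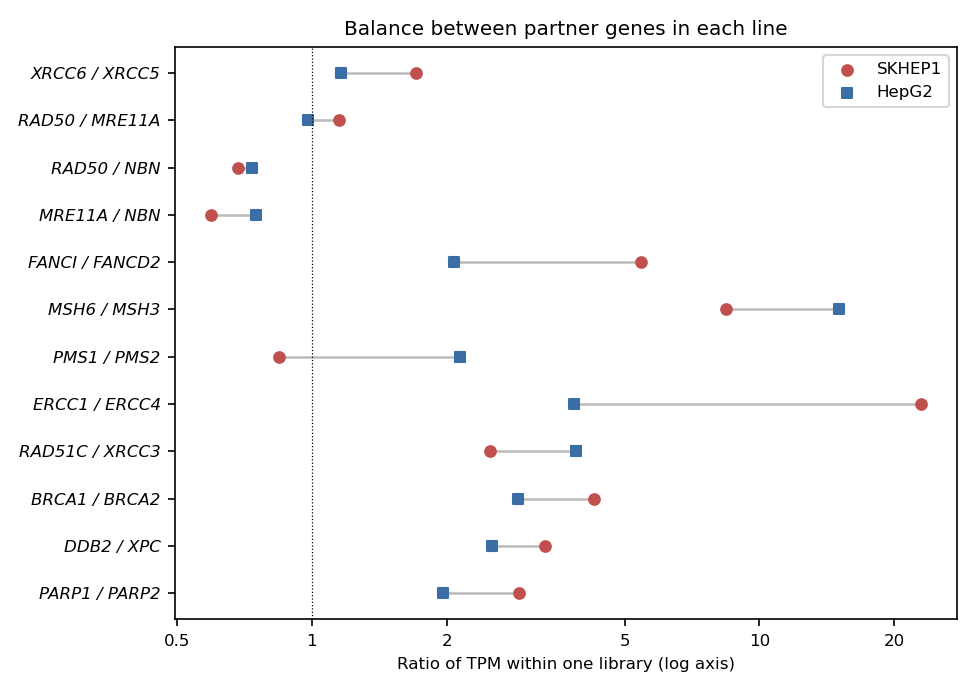
Ratio of TPM between the genes of 12 partner pairs within the SKHEP1 library (circles) and within the HepG2 library (squares), on a log axis; the dotted line marks equal levels. The ERCC1 to ERCC4 ratio is 23.0 in SKHEP1 and 3.86 in HepG2, while the RAD50 to NBN ratio is 0.682 and 0.734.

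Among 8 homologous recombination genes, 6 (75.0%, against 49.0% of all genes compared) were below a ratio of 1, the median log2 ratio was -0.20, and only PALB2 was past 2-fold. The 26 further genes of the pathway had a median of -0.06, with 4 at least 2-fold higher in SKHEP1 and 2 lower. PALB2, which bridges BRCA1 and BRCA2, had 502 counts in SKHEP1 against 1863 in HepG2, and was 3.38-fold lower in SKHEP1 (3.06 to 3.74). BRCA2, a central factor of the pathway, was 1.72-fold lower in SKHEP1 (1.56 to 1.91), at 589 and 1114 counts, whereas BRCA1 was 1.12-fold lower (1.05 to 1.19), at 1744 and 2136 counts. In TPM, PALB2 stood at 15.8 in SKHEP1 and 50.4 in HepG2, thus above BRCA1 (30.4 and 38.4) in HepG2 and below it in SKHEP1. Among the genes that assist strand exchange, RAD51D was 1.70-fold higher in SKHEP1 (1.45 to 2.00) and RAD51C 1.29-fold lower (1.17 to 1.43). XRCC2 and XRCC3 had ratios of 0.877 and 0.860, with intervals that ended at 0.992 and 0.993. BLM, the helicase that dissolves joined chromosomes, was 1.31-fold higher in SKHEP1 (1.17 to 1.47).

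The Fanconi anaemia genes had no shared direction. Of 10, 2 were at least 2-fold lower in SKHEP1, a share below the 23.4% of all genes compared. None was at least 2-fold higher, against 25.0% of all genes compared, and the median log2 ratio was -0.01. FANCA, a scaffold of the core complex, had 688 counts in SKHEP1 against 1612 in HepG2, a 2.13-fold lower level in SKHEP1 (1.95 to 2.34), and FANCD2, the protein that the complex ubiquitinates, had 722 and 1605, a 2.02-fold lower level (1.85 to 2.21). Neither was past 2-fold by TPM, at log2 ratios of -0.94 and -0.87, and FANCD2 was not past 2-fold with total counts as the scale. FANCI, the partner of FANCD2, was 1.40-fold higher in SKHEP1 by counts (1.33 to 1.48). It stood at 5.44 times the TPM of FANCD2 in SKHEP1 and 2.07 times in HepG2. FANCB was higher in SKHEP1, at 194 counts against 116 in HepG2 (1.84-fold, 1.45 to 2.33). The others were nearer. FANCC, of the core complex, and FANCL, the ubiquitin ligase of the pathway, were 1.60-fold and 1.43-fold lower in SKHEP1, and FANCE was 1.21-fold higher. FANCF, FANCG and the translocase FANCM had ratios of 1.02, 1.00 and 0.987, each with an interval that held 1. FANCA shares 2302 exon bases with the opposite-strand gene ZNF276, at 297 counts in SKHEP1 against 293 in HepG2. The sum of both rows had a log2 ratio of -0.82.

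Mismatch repair lay within 2-fold throughout the 5 genes. MSH6, which recognises single mismatches, was 1.19-fold lower in SKHEP1 (1.14 to 1.24), at 3296 and 4299 counts, and MSH3, which recognises larger loops, was 1.67-fold higher (1.49 to 1.88), at 738 and 484 counts. Since both compete for the same partner, their balance was compared, and MSH6 stood at 8.42 times the TPM of MSH3 in SKHEP1 and 15.1 times in HepG2. PMS2, the endonuclease of the pathway, was 1.83-fold higher in SKHEP1 (1.61 to 2.09), PMS1 1.31-fold lower, and MLH3 had a ratio of 0.935 (0.812 to 1.08). The order of PMS1 and PMS2 differed between the lines, at 15.3 TPM and 18.2 TPM in SKHEP1 and 20.9 TPM and 9.79 TPM in HepG2. PMS2 has near-identical copies and its count is uncertain for that reason. PMS2CL had 310 counts in SKHEP1 against 201 in HepG2, and the ratio of both rows together was 1.78.

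The damage-tolerant polymerases were within 2-fold. POLH, which copies past ultraviolet lesions, was 1.76-fold higher in SKHEP1 (1.62 to 1.93), at 1325 and 825 counts. POLQ, which joins ends through short homologies, had 608 and 801 counts (log2 ratio -0.26).

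Other genes of the same pathways were summarised alongside. Of 103 further repair genes, 12 (11.7%, against 25.0% of all genes compared) were at least 2-fold higher in SKHEP1. At least 2-fold lower were 7 (6.8%, against 23.4%), and 84 lay within 2-fold, with a median log2 ratio of -0.04. Past 4-fold were CUL4B, a ubiquitin ligase scaffold used with DDB2, at 6841 counts in SKHEP1 against 1582 in HepG2 (4.75-fold higher, 4.49 to 5.02), and RMI2, which works with BLM, at 161 and 1161 counts (6.57-fold lower, 5.57 to 7.79). C20orf196, the shieldin subunit SHLD1 that acts with TP53BP1, was also past 4-fold, at 23 counts in SKHEP1 against 115 in HepG2. The polymerase gene POLN, named after its value was seen, had 20.7 counts in SKHEP1 against 1 in HepG2. The 6 further end-joining genes had a median of 0.39, with 2 at least 2-fold higher in SKHEP1, POLM and DCLRE1C (1.32 and 1.19 on the log2 scale). XRCC5 and, of the further genes, NHEJ1 (-0.96) were the end-joining genes below a ratio of 1. Pathway by pathway, the medians of the further genes, set against those of the genes described above, were -0.15 against 0.62 in nucleotide excision repair, -0.01 against -0.52 in base excision repair, -0.06 against -0.20 in recombination, -0.14 against 0.42 among kinases and mediators, and -0.14 against 0.24 at break ends. In direct reversal the values were 0.17 and -0.54, and in mismatch repair -0.31 and -0.10. In end joining the medians were 0.39 and 0.28, in the Fanconi anaemia pathway -0.14 and -0.01, and among the damage-tolerant polymerases 0.51 and 0.28.

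Levels of proliferation and p53 target genes are given because repair genes are tied to both. Over all genes compared, 23.4% were at least 2-fold lower in SKHEP1 and 25.0% at least 2-fold higher. Of 25 replication and mitosis markers, 8 (32.0%) were at least 2-fold lower in SKHEP1 and 1 (4.0%) at least 2-fold higher, with a median log2 ratio of -0.13. Those lower in SKHEP1 included PCNA (-1.26), MCM2 (-1.21) and E2F1 (-1.17), while MKI67 (0.60) and FOXM1 (0.84) were higher. Of 21 p53 targets, 2 (9.52%) were at least 2-fold higher and 3 (14.3%) at least 2-fold lower in SKHEP1, with a median of 0.24. Both shares were below those of all genes compared. The part of either group in the repair gene values was not tested.

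Position on the chromosomes, which the choice of genes did not use, moved with some of the ratios. All 4 repair genes on chromosome 16, namely PALB2 (-1.76), FANCA (-1.09), NTHL1 (-1.05) and ERCC4 (-0.66), were lower in SKHEP1, and the 725 other genes compared on that chromosome had a median log2 ratio of -0.84. Likewise all 5 on chromosome 14 and all 4 on chromosome 2 were below a ratio of 1, where the other genes had medians of -0.17 and -0.26. Over all genes compared, 49.0% were below a ratio of 1. On chromosome 14 the intervals of FANCM and MLH3 held 1. FANCM changed sign with total counts as the scale, and XRCC3 with TPM. FANCB, the only repair gene on chromosome X, was at 0.88, and the 492 other genes there at a median of 0.69. Chromosome medians of the repair genes and of the other genes also shared a sign elsewhere, for example 0.55 and 0.26 on chromosome 8. They shared a sign on every chromosome with repair genes except 4, 6, 12, 13, 17 and 22, where the signs were opposite. UNG (-0.69), the only repair gene on chromosome 12, lay opposite to a median of 0.60, and NEIL3 (0.59) on chromosome 4 opposite to -0.25. On chromosome 6 the repair genes had a median of 0.55 and the other genes -0.20, and on chromosome 13 the medians were 0.72 and -0.09. On chromosome 19, ERCC1 (2.12) and ERCC2 (1.21) were far above the median of 0.10. Across the 57 genes the ratio and the median of the other genes on the same chromosome had a Pearson r of 0.40 and a Spearman rho of 0.46, a description over genes that share both libraries and, in part, a chromosome. Without chromosome 16, r was 0.25 and rho 0.35 over 53 genes. When each ratio was taken relative to its chromosome median, a comparison added after the data were seen, 6 genes stood at least 2-fold higher in SKHEP1 and 3 lower. NEIL1, OGG1 and UNG were the lower ones, and PALB2 came to -0.91. Copy number was not measured, and its part was not tested.

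**Figure D5:**
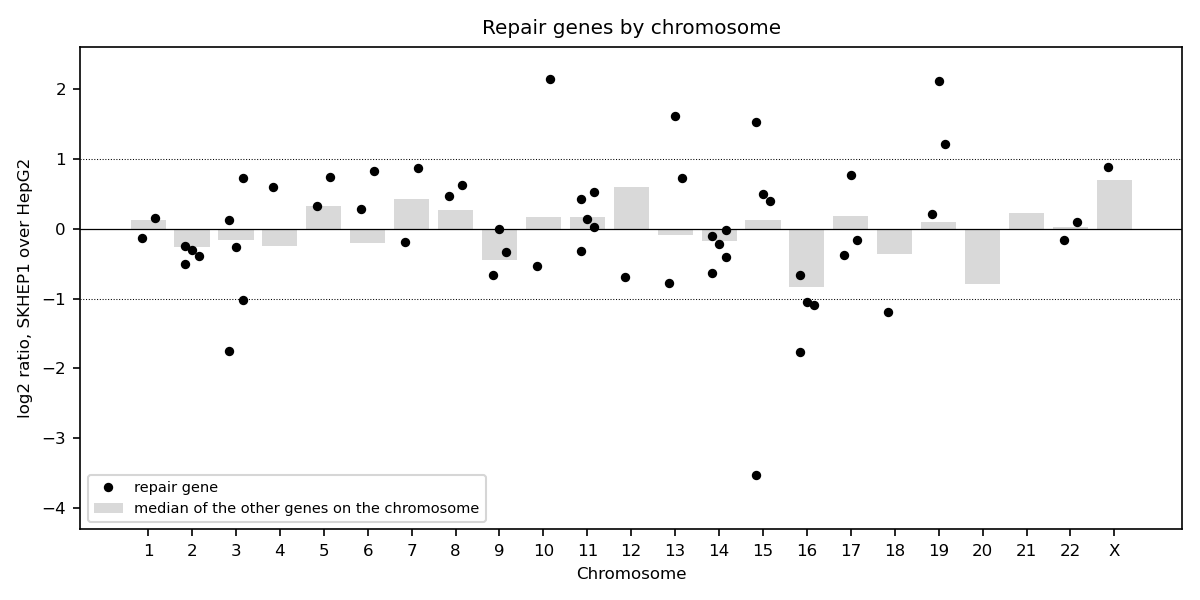
Log2 ratio, SKHEP1 over HepG2, of each repair gene (points) by chromosome, with the median of the other genes compared on that chromosome as a bar from 0; dotted lines mark 2-fold. All 4 points of chromosome 16 lie below 0, beside a chromosome median of -0.84.

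Transcript mix was compared through gene length. The deposited gene length is the mean length of a gene's transcripts weighted by their estimated share, so it shifts when the mix of transcripts differs. Among 56 repair genes with at least 100 counts in both libraries, 4 (7.14%) had lengths at least 20% apart, close to the 7.41% of 9193 genes. FANCC had a mean length of 3922 bases in SKHEP1 and 2837 in HepG2, and POLH 3530 and 2839, while ATR had 3554 and 4330 bases and XRCC3 1329 and 1609. Because TPM divides by this length, FANCC and ATR were past 2-fold by TPM (log2 ratios of -1.12 and 1.07) but not by counts (-0.67 and 0.72), and XRCC3 lay at 0.15 by TPM and -0.22 by counts.

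Promoter letters were examined as a feature of the members that the counts do not use. RefSeq windows of 250 bases before a gene's start (build GRCh38.p14) were matched for 53 of the 57 genes, with 78 windows, and for 10327 genes compared, with 15153 windows. All 4 motifs were searched on both strands, and the E2F-like letters and the GC box can overlap. The E2F-like letters TTCCCGC were in 19.2% of the repair gene windows and 7.93% of all windows, CCAAT in 42.3% and 32.9%, CCGGAAG, the core of ETS sites, in 19.2% and 13.2%, and GGGCGG, the GC box, in 67.9% and 61.7%. The 13 repair genes with the E2F-like letters ran from -0.67 (FANCC) to 0.77 (RAD51D) on the log2 scale, and none was at least 2-fold apart. Of all 57 repair genes 78.9% lay within 2-fold, and of all genes compared 51.6%. Ratios of other genes with these letters were not examined, so no trait of the letters can be read from this. A match is a description of letters and not a binding site. The windows of the 13 genes' extremes, and of PALB2 and LIG4, the genes furthest apart in each direction among those that share no exon bases with an expressed neighbour, are shown 5′ to 3′ on the strand of the gene, with matches to any of the 4 motifs in capitals. The window lies at chr13:108218350-108218599 (minus strand) for LIG4, chr16:23641311-23641560 (minus) for PALB2, chr17:35119759-35120008 (minus) for RAD51D and chr9:95317710-95317959 (minus) for FANCC. RefSeq has 5 windows for LIG4, 2 for RAD51D and 2 for FANCC, of which 1 each is shown.
LIG4: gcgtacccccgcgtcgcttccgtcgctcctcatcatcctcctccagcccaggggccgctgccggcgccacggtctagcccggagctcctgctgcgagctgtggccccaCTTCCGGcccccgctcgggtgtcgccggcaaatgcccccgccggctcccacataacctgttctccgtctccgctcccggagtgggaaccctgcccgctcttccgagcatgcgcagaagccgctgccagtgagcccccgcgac
PALB2: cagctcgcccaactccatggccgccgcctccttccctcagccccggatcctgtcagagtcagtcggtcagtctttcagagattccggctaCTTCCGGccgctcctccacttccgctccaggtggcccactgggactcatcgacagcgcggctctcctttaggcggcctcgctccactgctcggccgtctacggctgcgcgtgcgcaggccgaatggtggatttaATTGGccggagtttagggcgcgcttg
RAD51D: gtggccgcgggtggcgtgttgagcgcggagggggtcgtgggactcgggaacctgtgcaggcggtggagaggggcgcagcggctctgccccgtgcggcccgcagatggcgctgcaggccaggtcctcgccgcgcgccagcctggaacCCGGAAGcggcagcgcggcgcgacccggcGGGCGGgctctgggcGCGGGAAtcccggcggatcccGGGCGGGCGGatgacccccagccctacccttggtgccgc
FANCC: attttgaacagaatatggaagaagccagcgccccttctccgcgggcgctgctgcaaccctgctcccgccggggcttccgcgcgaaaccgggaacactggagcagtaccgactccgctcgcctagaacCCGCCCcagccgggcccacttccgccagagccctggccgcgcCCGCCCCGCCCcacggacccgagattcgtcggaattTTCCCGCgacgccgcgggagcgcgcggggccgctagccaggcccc
The LIG4 and PALB2 windows shown each hold 1 ETS core, the PALB2 window also holds a CCAAT box, and neither holds the E2F-like letters. Motifs were not tested against the ratios.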

How the data were processed

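Each line, as its label names it, has 1 library. The submitters' processing notes list cutadapt, STAR, RSEM and DESeq2, with hg19 as genome build. The annotation, the use of strand by RSEM and every tool version were not given in the sources used here, which leaves values of overlapping genes uncertain. The authors deposited, per the file headers, RSEM expected counts, TPM and FPKM for each gene. Other deposited columns give a gene length and an effective length in bases. Of the 57 genes, 53 had whole expected counts (within 0.005) in each library. Among them were ERCC1, OGG1, TP53BP1, FANCA and NEIL1, which share exon bases with opposite-strand genes.

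Expected counts were rounded and scaled to counts-per-million of TMM effective library sizes (edgeR 4.0.16, R 4.3.3), with TMM factors of 1.01 for SKHEP1 and 0.987 for HepG2. A count under 3 in 1 library would be set to a floor of 3 counts per library (0.148 counts-per-million in SKHEP1 and 0.135 in HepG2), which no repair gene of the 57 needed. Intervals at 95% are exact Clopper-Pearson intervals conditional on the summed count, and PCR reads are not independent molecules, so they cover counting error only. No difference was tested, since neither line has a replicate. The calculation was run on counts simulated with counting error only. That simulation held no variation between cultures and no shared reads, so it checks the calculation and not the differences.

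The members, lists and limits of 2-fold and 4-fold were chosen with earlier results of these data known. Every member could be named. Of the other repair genes, those at least 4-fold apart with at least 100 counts in the higher library were named. Overlapping, neighbouring and further repair genes beyond that rule were named after their values were seen. Chromosomes came from GENCODE release 29 by stable identifier, which matched 15007 (97.2%) of the 15436 genes compared, and exon overlaps came from the same release, whose build is not hg19. Promoter sequences are from RefSeq. The alternatives scaled by total counts or by size factors (DESeq2 1.42.0), took the TPM or FPKM columns, thinned the HepG2 library, and used a prior count of 2, minimums of 50 and 1 counts, unrounded counts, the interval bound nearest to 1, the mean, and other backgrounds. Software was Python 3.11.15, scipy 1.17.1, pandas 2.3.3, numpy 2.4.6 and, for plots, matplotlib 3.10.9.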

Additional observations from a re-analysis of the deposited data

How the results depend on the processing

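Of 102 summary values recomputed, 91 stayed close to the value reported, that is, within 1.5 times for a count and within the 95% interval for a median or a share. The median log2 ratio of the 57 genes ran from -0.06 to 0.08. No member past 2-fold changed direction under any alternative run. Scaling by total counts or size factors moved members by at most 0.05 on the log2 scale, too little to reverse a gene past 2-fold. The 7 members at least 2-fold lower in SKHEP1 became 4 by the interval bound nearest to 1, 3 relative to chromosome medians, and 3 without the 23 members that share reads with a copy or readthrough, or at least 100 exon bases with a gene of at least 10 counts. Without those 23, the 5 at least 2-fold higher became 2 (ERCC2 and LIG4). At 4-fold, the 2 higher genes became 1 with TPM and 1 with FPKM values, where ERCC1 fell out, and 0 by the interval bound. The 1 lower gene, NEIL1, became 0 with a minimum of 50 counts and 0 by the interval bound. The share of all genes at least 2-fold apart was 48.4%, 46.0% for protein-coding genes and 41.1% for genes with at least 100 counts. With TPM, FANCA and FANCD2 left the genes past 2-fold and ATR, FANCB and FANCC entered. The chromosome, shared-base and 100-count alternatives were chosen after seeing the data. No paired analysis was possible because each line has 1 library and no difference was tested. A single library per line limits every value.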

Other observations

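Of the 103 further repair genes, those at least 2-fold apart that have not been described above were spread over several pathways, and they were chosen after their values were seen. Among genes of damage tolerance, the polymerase gene POLK had 832 counts in SKHEP1 and 295 in HepG2 (log2 ratio 1.63), and UBE2A, the ubiquitin-conjugating enzyme that works with RAD18, had 2160 and 895 (1.41). REV3L, the catalytic subunit of polymerase zeta, went the other way at 758 counts in SKHEP1 and 2476 in HepG2 (-1.57). Among recombination genes, the helicase gene RECQL had 3935 and 1293 counts (1.74), and SFR1, SWI5's partner in strand exchange, 245 and 122 (1.14). SWI5 itself had 211 counts in SKHEP1 and 439 in HepG2 (-0.92). RNF168, a ubiquitin ligase whose mark recruits TP53BP1, had 248 counts in SKHEP1 and 813 in HepG2 (-1.58), whereas TP53BP1 was higher in SKHEP1 (1.53). APTX, which removes stalled ligation products, had 361 and 875 counts (-1.14). RAD54B, a motor protein of recombination, had 543 counts in SKHEP1 and 286 in HepG2 (1.06), and ZSWIM7, a recombination factor, 250 and 137 (1.00). APLF, an end-joining and strand-break scaffold, had 78 and 40 counts (1.10). The structure-specific nuclease gene SLX1A, whose count is uncertain because of its near-identical copy SLX1B, had 59.5 counts in SKHEP1 and 236 in HepG2 (-1.84), and SLX4IP, a partner of SLX4, had 23 and 94 (-1.90).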
